A study of Homo sapiens with 3 samples.

Results

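A set of 9 transcription factors that steer myeloid blood cells was followed in THP-1 cells, a human monocytic leukemia line, before and after treatment with phorbol myristate acetate (PMA): MYB, GFI1, IRF8, SPI1, CEBPA, CEBPB, CEBPD, RUNX1 and KLF4. They were chosen by gene symbol, as the array features (probe sets) that the platform annotation pairs with exactly 1 of these symbols. That gave 11 probe sets for 8 of the 9 genes, among 19775 genes with such a probe set. RUNX1 had no probe set of its own: its 13 probe sets are each listed with several genes, so no value is given for it. THP-1 carries the KMT2A-MLLT3 fusion gene, and PMA, an activator of protein kinase C, turns it into an adherent, macrophage-like cell.

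Total RNA from 3 cultures was measured on 1 array each. The undifferentiated culture grew without PMA. The PMA 3 days culture had 200 nM PMA for 24 h and was then kept free of it for 3 days, and the PMA 8 days culture had 200 nM PMA for 72 h followed by 5 days free of it. Growth serum is listed as 10% for all 3 samples. A protocol text shared by all 3 samples ends with 16 h in 2% serum, with no separate statement for each culture. The PMA cultures differ in how long PMA was present, how long it had been gone and in total time, and these cannot be told apart. With 1 culture per condition there is no error across cultures and no test between conditions. Values are in the authors' signal units, where signals below 149.8 (the middle value over the 3 arrays together) were raised to that floor before ratios were taken. A gene is called higher or lower at 2-fold, and "at least" marks a ratio whose dimmer array lay at or below the floor.

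These factors work as a network in which each cell's balance sets its fate. MYB keeps progenitors dividing and must decline for them to mature. PU.1 (the product of SPI1), RUNX1 and C/EBP-alpha (CEBPA) open the genes shared by all myeloid cells, GFI1 represses monocyte genes and favours granulocytes, and IRF8 and KLF4 favour monocytes. C/EBP-beta (CEBPB) and C/EBP-delta (CEBPD) take over in mature and stimulated macrophages. PU.1 and IRF8 can bind the same DNA element as partners. C/EBP-alpha, C/EBP-beta and C/EBP-delta bind one sequence as dimers of any pair.

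After PMA, the progenitor and lineage factors MYB, GFI1, IRF8 and CEBPA were lower and CEBPB was higher on both PMA arrays. CEBPD was lower at PMA 8 days, KLF4 differed by less than 2-fold, and SPI1 was read near the floor. At PMA 3 days over undifferentiated, 4 of the 8 members were lower and 1 was higher, where 10.7% and 10.3% of all 13319 genes tested were. At PMA 8 days over undifferentiated, 5 of 8 were lower and 1 higher, against 8.39% and 9.72% of 13582 genes. The median log2 ratio of the members was -1.68 and -1.51, against -0.12 and -0.07 over all genes tested. The members were picked with earlier results of these data known, so these counts describe them and support nothing about the class. Both comparisons share the undifferentiated array. In whole-culture RNA, fewer cells with a transcript and less of it per cell cannot be told apart.

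**Figure D1:**
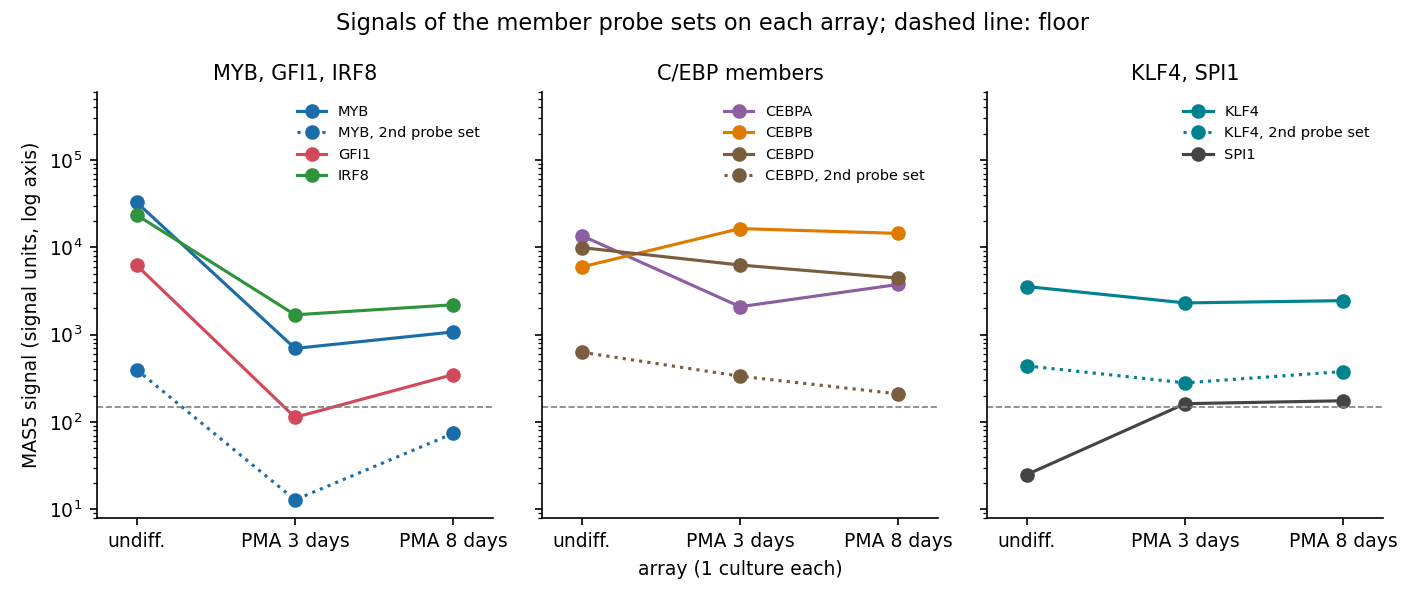
Signal of each of the 11 member probe sets (y axis, signal units, log scale) on the 3 arrays (x axis). Solid lines are the brightest probe set of a gene, dotted lines its second one and the dashed line the floor of 149.8. MYB, GFI1, IRF8 and CEBPA lie lower on both PMA arrays than on the undifferentiated one, and CEBPB lies higher.

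MYB, the progenitor factor, had 32633 signal units in undifferentiated cells, 696 at PMA 3 days and 1074 at PMA 8 days. The undifferentiated array stood far above both PMA arrays, by 46.9-fold (PMA 3 days) and 30.4-fold (PMA 8 days). Counted from the lowest ratio, it ranked 5 of 11364 genes measured on both arrays at PMA 3 days and 7 of 11544 at PMA 8 days. A second, much dimmer MYB probe set had 397 units in undifferentiated cells and lay below the floor at 12.9 (PMA 3 days) and 74.2 (PMA 8 days), so it gave only a bound of at least 2.65-fold lower for either PMA array. Both probe sets had their highest signal in undifferentiated cells.

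GFI1, a zinc-finger repressor that works through the histone demethylase KDM1A, had 6206 units in undifferentiated cells, 113 at PMA 3 days and 349 at PMA 8 days. It was at least 41.4-fold lower at PMA 3 days, where it lay below the floor, and 17.8-fold lower at PMA 8 days, rank 17 from the lowest. The PMA 8 days array was at least 2.33-fold above the PMA 3 days array, which made GFI1 the 1 member of 8 called higher between the PMA arrays (1.37% of 13066 genes were called higher and 0.934% lower; 0 members were lower). This last call was made in 8 of the 9 settings with a 2-fold rule, among them no floor (log2 ratio 1.63). It was not made at the 60th percentile floor of 261 (0.42), nor with a 3-fold call.

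IRF8, the interferon regulatory factor of monocytes and dendritic cells, had 23399 units in undifferentiated cells, 1688 at PMA 3 days and 2199 at PMA 8 days. It was 13.9-fold (PMA 3 days) and 10.6-fold (PMA 8 days) lower than in undifferentiated cells and remained well above the floor on all 3 arrays. Its ratio ranked 23 from the lowest at PMA 3 days and 31 at PMA 8 days.

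CEBPA, the C/EBP factor of early myeloid and granulocytic commitment, had 13606 units in undifferentiated cells, 2090 at PMA 3 days and 3760 at PMA 8 days. It was 6.51-fold and 3.62-fold lower on these PMA arrays, rank 80 and 228 from the lowest. The PMA 8 days signal was 1.80-fold the PMA 3 days signal, short of a call, and ranked 267 from the highest of 11737 genes between these arrays. MYB (log2 ratio 0.63) and IRF8 (0.38) also had more signal at PMA 8 days than at PMA 3 days, neither by 2-fold. The poly-A labelling controls moved the opposite way, with a median log2 ratio over undifferentiated cells of 0.31 at PMA 3 days and 0.02 at PMA 8 days. Scaled to them, the PMA 8 days over PMA 3 days log2 ratio of CEBPA was 1.13, past 2-fold. The same scaling moved all genes, to a median of 0.30 between these arrays with 92.2% of calls higher. CEBPA passed 2-fold between the PMA arrays in 1 of the 9 settings with a 2-fold rule.

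CEBPB, the C/EBP factor of macrophages and of inflammatory genes, was the only member called higher over undifferentiated cells. It had 5963 units in undifferentiated cells, 16382 at PMA 3 days and 14436 at PMA 8 days. It was 2.75-fold and 2.42-fold higher on the PMA arrays, which differed by a log2 ratio of -0.18 (PMA 8 days over PMA 3 days), turning to 0.10 under poly-A control scaling. From the highest ratio it ranked 617 at PMA 3 days and 673 at PMA 8 days.

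CEBPD, a C/EBP factor that responds early to endotoxin and cytokines, had 9921 units in undifferentiated cells, 6269 at PMA 3 days and 4439 at PMA 8 days. It was 1.58-fold lower at PMA 3 days, short of a call, and 2.23-fold lower at PMA 8 days. Its second probe set had 629, 335 and 210 units in the same order, 1.88-fold and 3.00-fold lower. Both CEBPD probe sets thus had their order of arrays in common, with the least signal at PMA 8 days.

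KLF4, a zinc-finger factor of monocyte differentiation, had 3558 units in undifferentiated cells, 2310 at PMA 3 days and 2452 at PMA 8 days. The log2 ratios were -0.62 and -0.54, and the second probe set (439, 281 and 378 units) gave -0.65 and -0.21. Neither probe set reached 2-fold. SPI1, which encodes the ETS factor PU.1, was read by 1 probe set at 25.005 units in undifferentiated cells, 162 at PMA 3 days and 175 at PMA 8 days. The 3 signals lay below or just above the floor, so SPI1 was at least 1.08-fold (PMA 3 days) and at least 1.17-fold (PMA 8 days) higher and was not called. Without any floor its log2 ratios were 2.70 and 2.81. A signal near the floor from a single probe set does not show that the transcript was absent.

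**Figure D2:**
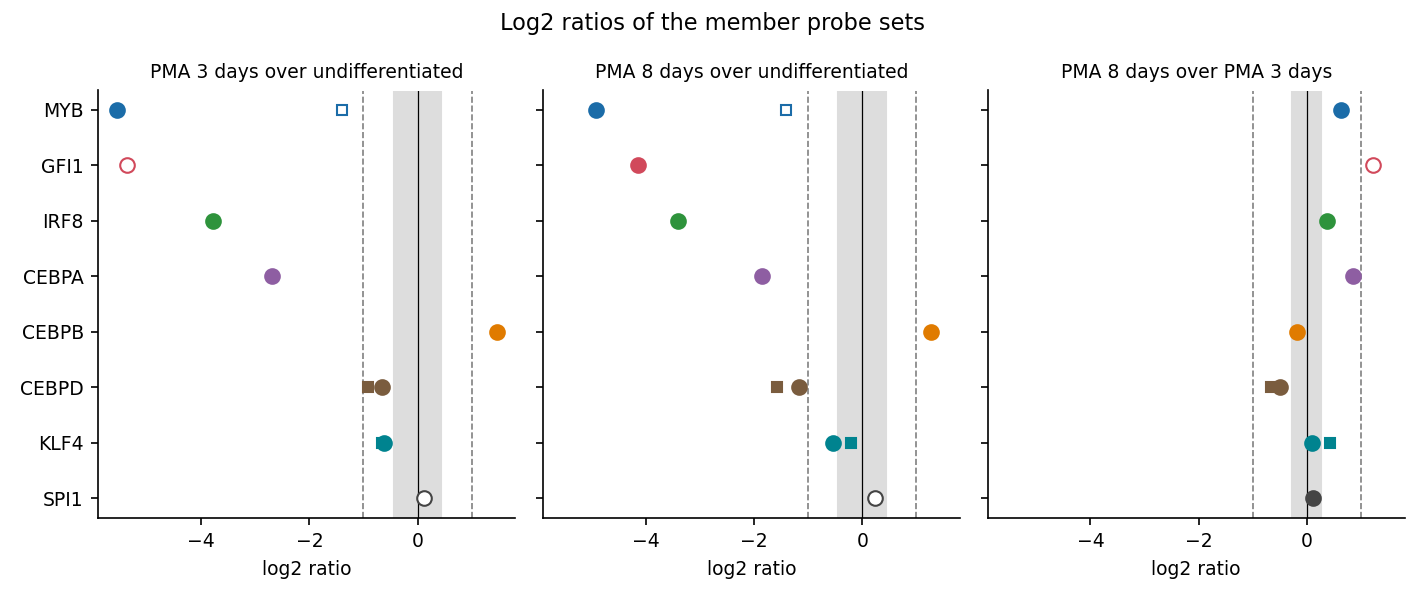
Log2 ratio (x axis) of every member probe set (rows) in the 3 comparisons. Circles are a gene's brightest probe set, squares its second one, open symbols ratios with an array at the floor, dashed lines 2-fold, and the grey band 1 SD to either side, taken between a gene's probe sets over 5180 genes. MYB, GFI1, IRF8 and CEBPA lie left of the 2-fold line in both comparisons with undifferentiated cells, and CEBPB lies to the right.

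The spread between probe sets of one gene, the only error these data offer, was 0.43, 0.44 and 0.27 on the log2 scale (SD over 5180 genes) for the PMA 3 days ratio, the PMA 8 days ratio and the ratio of both PMA arrays. It holds differences between transcripts as well as measurement error and covers no difference between cultures or labellings. The ratios of MYB, GFI1, IRF8, CEBPA and CEBPB over undifferentiated cells were larger than this SD, as were those of KLF4 and CEBPD by their brightest probe sets. GFI1, IRF8, SPI1, CEBPA and CEBPB were read by 1 probe set each, so 5 of the 8 members had no second probe set to compare with, and 3 had 2.

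**Figure D3:**
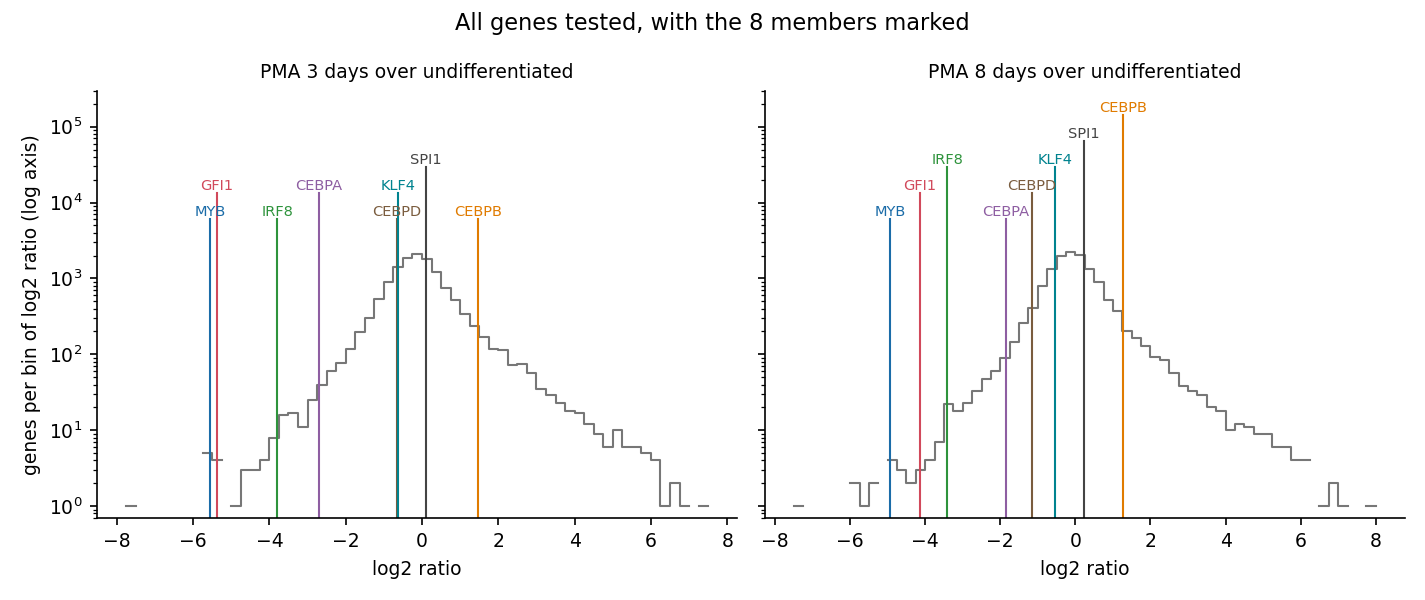
Number of genes per bin of log2 ratio (y axis, log scale; bins of 0.25) for all genes tested, with vertical lines at the 8 members. MYB and GFI1 lie in the far left tail in both panels, and CEBPB lies on the right shoulder.

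The promoter windows at the gene starts are shown for MYB, GFI1 and CEBPA, past 2-fold lower on both PMA arrays, and for CEBPB, past 2-fold higher. Their RefSeq windows are set at the outer end of the gene. Each runs from 250 bases before to 50 after the start, is taken from RefSeq on GRCh38.p14, and is written 5′ to 3′ on the gene's strand. The MYB window is chr6:135181058-135181357 (plus strand), that of GFI1 is chr1:92486876-92487175 (minus strand), that of CEBPA is chr19:33302485-33302784 (minus strand) and that of CEBPB is chr20:50190333-50190632 (plus strand). Capitals mark matches, on either strand, to short core letters of the members' own binding motifs, which are named after the sequences.
MYB: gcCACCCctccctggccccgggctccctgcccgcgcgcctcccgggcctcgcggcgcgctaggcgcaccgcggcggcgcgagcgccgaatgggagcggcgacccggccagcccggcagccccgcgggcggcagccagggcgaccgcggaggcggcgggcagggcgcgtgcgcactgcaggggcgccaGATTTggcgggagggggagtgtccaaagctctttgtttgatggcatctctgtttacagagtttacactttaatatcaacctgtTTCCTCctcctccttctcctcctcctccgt
GFI1: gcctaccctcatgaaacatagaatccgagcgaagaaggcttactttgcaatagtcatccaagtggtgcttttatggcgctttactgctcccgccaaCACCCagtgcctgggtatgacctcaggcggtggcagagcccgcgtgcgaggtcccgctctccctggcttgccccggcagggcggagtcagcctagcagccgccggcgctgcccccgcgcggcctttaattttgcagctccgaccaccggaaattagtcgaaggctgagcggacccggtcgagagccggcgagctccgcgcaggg
CEBPA: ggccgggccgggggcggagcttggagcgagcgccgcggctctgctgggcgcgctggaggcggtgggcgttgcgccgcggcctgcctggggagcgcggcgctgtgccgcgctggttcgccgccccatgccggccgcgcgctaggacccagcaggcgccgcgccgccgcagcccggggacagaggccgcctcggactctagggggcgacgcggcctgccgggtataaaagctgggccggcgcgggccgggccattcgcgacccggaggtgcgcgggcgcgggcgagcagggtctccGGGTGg
CEBPB: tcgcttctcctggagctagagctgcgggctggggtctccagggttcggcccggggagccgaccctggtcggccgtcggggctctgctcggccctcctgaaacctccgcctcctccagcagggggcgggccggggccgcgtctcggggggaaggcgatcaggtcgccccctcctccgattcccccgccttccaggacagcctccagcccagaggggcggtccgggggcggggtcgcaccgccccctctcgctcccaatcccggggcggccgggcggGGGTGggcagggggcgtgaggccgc

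The letters searched were TGTGGT (RUNX), GAGGAA (PU.1), TTGCNNAA (C/EBP), AACTG and AACGG (MYB), AAATC (GFI1), CACCC (KLF) and the interferon response element. Of 35116 windows of the same length, 13.1%, 27.9%, 10.5%, 52.4%, 33.1%, 59.9% and 3.57% held them in that order. CEBPD was left out of the search, so no window of it is shown or counted. With KLF4, 5 of the members searched had a window at the outer start of the gene. The KLF letters were in 4 of these 5, those of PU.1 and of GFI1 in 2 each (MYB and KLF4), those of MYB in 1 (KLF4), and those of RUNX, C/EBP and the interferon element in 0. Counting the first transcribed base as 0, the CACCC of the MYB window began at -248, the GFI1 letters (reversed, GATTT) at -63 and those of PU.1 (reversed, TTCCTC) at 20. The CACCC of GFI1 began at -154. In CEBPA and CEBPB the KLF letters were on the other strand, as GGGTG, from 44 and 25. The 5 windows were 63.3% to 80.7% G and C, against a median of 58.7% over all windows. These are matches of letters in short windows and not binding sites, and enhancers were not analysed here. The RefSeq windows of IRF8 and RUNX1 lie inside those genes and are not shown. SPI1 had no window in the set used here and was not searched.

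The relatives and partners of the members were followed next, in 8 lists of family members and cofactors. The lists were written from general knowledge, with earlier results of these data known. Calls are by each gene's brightest probe set. Ratios of the other probe sets of list genes were taken after the floor and are not marked where they are bounds. Leaving out the members, 8 of 48 tested genes (16.7%) were lower and 5 (10.4%) higher at PMA 3 days, where 10.7% and 10.3% of all genes were. At PMA 8 days 7 of 49 (14.3%) were lower and 4 (8.16%) higher, against 8.39% and 9.72% of all genes. The median log2 ratios were -0.31 and -0.30. All these lists hold few genes, and nothing is claimed for a list from its count.

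Within the C/EBP family, 1 of 6 genes was higher and 1 lower at PMA 3 days, and 1 and 2 at PMA 8 days, all of them members. The other relatives differed by less than 2-fold. CEBPE, the late granulocyte factor, had 397, 427 and 477 units in undifferentiated, PMA 3 days and PMA 8 days cells, CEBPG had 2986, 2728 and 2769, and the stress factor DDIT3 had 1569, 2752 and 1661. CEBPG's second probe set gave log2 ratios of -0.97 and -1.09, lower than its brightest one.

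Of the ETS family of PU.1, 14 of 16 genes were tested, and ETS1 alone passed 2-fold by its brightest probe set. ETS1, best known from lymphocytes, had 3769 units in undifferentiated cells, 9893 at PMA 3 days and 10996 at PMA 8 days, 2.63-fold and 2.92-fold higher. Its other 2 probe sets ranged from 0.44 to 1.61 in log2 ratio at PMA 3 days and from 0.08 to 2.01 at PMA 8 days, so they disagreed on its size. FLI1, a factor of stem cells and platelets, had log2 ratios of -0.38 and -0.73. SPIB, the lymphoid relative of PU.1, was at or below 179 units on all 3 arrays, and SPIC, the one of iron-recycling macrophages, was below the floor on all 3.

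The RUNX relatives moved apart. RUNX3, known from lymphocytes, had 1577 units in undifferentiated cells, 4056 at PMA 3 days and 4034 at PMA 8 days, 2.57-fold and 2.56-fold higher, and its second probe set gave log2 ratios of 1.12 and 1.25. RUNX2, the bone factor that also acts in plasmacytoid dendritic cells, had 17563, 8351 and 8194 units, 2.10-fold and 2.14-fold lower, and was short of 2-fold at PMA 3 days when ratios were centred on all genes. CBFB, the DNA-binding partner of all RUNX proteins, had 19567, 9802 and 11744 units, just short of 2-fold lower at PMA 3 days and 1.67-fold lower at PMA 8 days.

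In the IRF family, 3 of 8 tested genes were lower and 1 higher at PMA 3 days, and 3 and 0 at PMA 8 days. IRF8 had the lowest ratio of these genes. IRF5, an activator of inflammatory cytokine genes, was 3.19-fold and 3.68-fold lower by its brightest probe set, while 2 others gave -0.92 and -0.08 in log2 ratio at PMA 3 days. IRF3, the sensor-linked activator of interferon genes, was 2.34-fold and 2.12-fold lower, the second value falling short of 2-fold under quantile normalization. IRF2, which restrains IRF1, was 2.22-fold higher at PMA 3 days, short of 2-fold under poly-A control scaling, and 1.95-fold at PMA 8 days. IRF1, an activator of interferon-response genes, had log2 ratios of 0.38 and 0.75, while its second probe set gave 1.47 and 1.39. IRF4, the closest relative of IRF8, had 294, 219 and 174 units in undifferentiated, PMA 3 days and PMA 8 days cells, under 2-fold apart.

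In the KLF family, 2 genes were higher and 2 lower at both PMA times, of 12 tested at PMA 3 days and 13 at PMA 8 days. KLF3, a repressor, was 3.07-fold and 3.16-fold higher (0.62 to 1.61 in log2 ratio by 3 other probe sets at PMA 3 days), and KLF6, an activator in inflammatory macrophages, was 2.08-fold and 2.17-fold higher. For KLF6 the other 4 probe sets ranged from -0.44 to 1.29 in log2 ratio at PMA 3 days, where poly-A control scaling ends the call. KLF12 was 2.74-fold and 2.18-fold lower, which its other 3 tested probe sets did not show, and KLF15 was at least 3.62-fold lower on both PMA arrays. KLF2, the relative of KLF4 that restrains macrophage activation, had log2 ratios of -0.47 and -0.14.

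MYB's relative MYBL2, a cell cycle factor, had 2900 units in undifferentiated cells, 601 at PMA 3 days and 1000.0 at PMA 8 days, 4.82-fold and 2.90-fold lower, and MYBL1 had log2 ratios of -0.67 and 0.27. GFI1's relative GFI1B was below the floor on all 3 arrays. Of GFI1's corepressors, KDM1A was 2.05-fold lower at PMA 3 days and 1.94-fold at PMA 8 days, and RCOR1, HDAC1, HDAC2 and EHMT2 had log2 ratios between -0.72 and -0.37 at PMA 3 days. KDM1A, called at PMA 3 days, was not past 2-fold when the ratios were centred on all genes. Of 4 coactivators, MEN1, a partner of KMT2A, was 2.02-fold and 2.38-fold lower, the first ending under quantile normalization and centring, and CREBBP and EP300, which MYB binds, had log2 ratios of -0.30 and -0.31 at PMA 3 days.

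**Figure D4:**
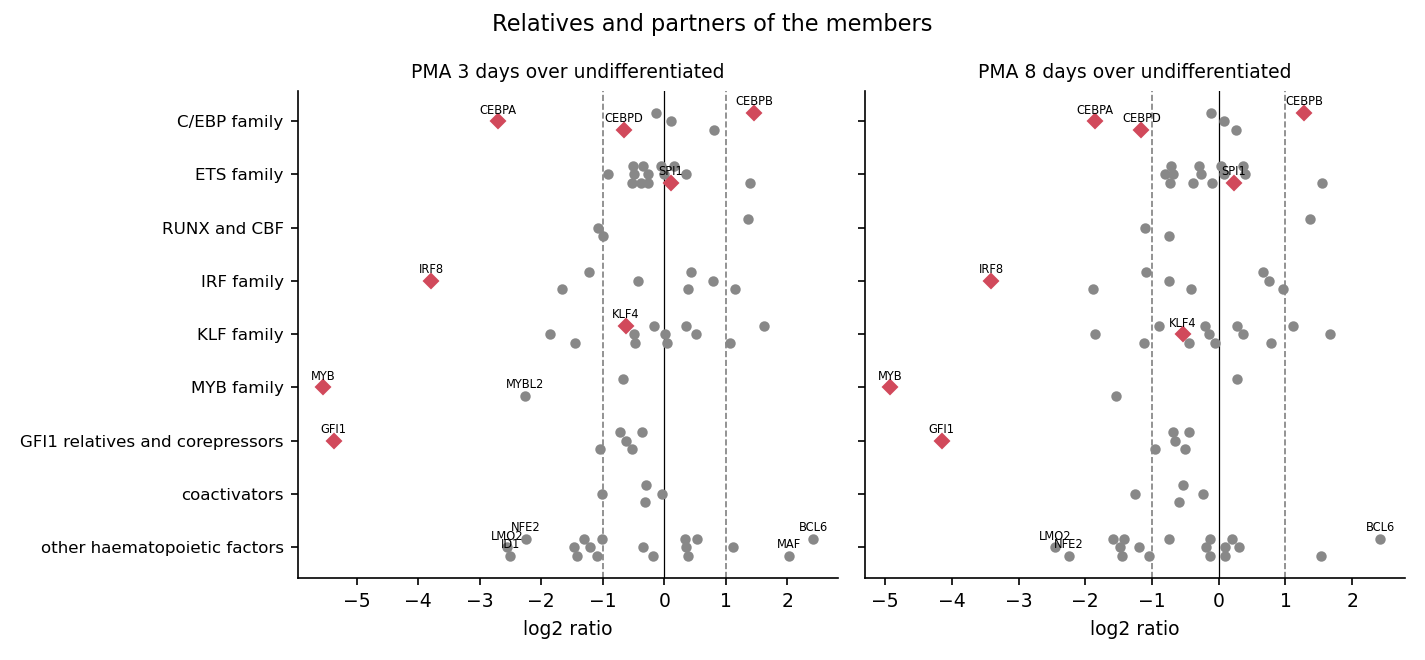
Log2 ratio (x axis) of the tested genes of 8 lists of relatives and cofactors and of 1 list of other blood cell factors (rows) at PMA 3 days and PMA 8 days over undifferentiated cells, 1 point per gene. Red diamonds are the members, and dashed lines mark 2-fold. The members MYB, GFI1 and IRF8 lie far left of their relatives, and most of the other points lie within 2-fold.

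Genes known as targets of the members were followed in 7 lists, which share genes and rest in part on work in mice. Over the lists, 12 of 40 tested genes were lower (30.0%) and 9 higher (22.5%) at PMA 3 days, where 10.7% and 10.3% of all genes were. At PMA 8 days 14 of 41 (34.1%) were lower and 8 (19.5%) higher, against 8.39% and 9.72% of all genes. Each list is read against the same shares. The genes were listed for their known roles in myeloid cells and with earlier results of these data known. The counts therefore describe the listed genes and support nothing about targets as a class. Whether the factors' own changes bear on these was not tested.

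Of 7 tested MYB targets, 5 were lower and 0 higher at both times. They were ELANE (neutrophil elastase), BCL2 (a survival factor), the progenitor receptors KIT and FLT3, and MYC. MYC had 9225 units in undifferentiated cells, 1767 at PMA 3 days and 2453 at PMA 8 days, 5.22-fold and 3.76-fold lower. KIT had 1831, 33.6 and 260 units, at least 12.2-fold lower at PMA 3 days and 7.05-fold at PMA 8 days. In BCL2 the brightest probe set was at least 24.5-fold lower at PMA 3 days, while 2 others gave log2 ratios of -0.78 and 0.11, and CD34 was below the floor on all 3 arrays.

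The granulocytic targets of C/EBP-alpha were lower in 5 of 9 cases at PMA 3 days and 7 of 9 at PMA 8 days, and 0 were higher. ELANE had 32065 units in undifferentiated cells, 156 at PMA 3 days and 199 at PMA 8 days. The granule genes AZU1 (53.4-fold and 58.7-fold), CTSG (43.1-fold and 38.8-fold) and PRTN3 (at least 17.0-fold at both times) were lower, as was CSF3R, the receptor for granulocyte colony-stimulating factor (2.71-fold and 3.33-fold). Lysozyme, LYZ, was 2.69-fold lower at PMA 8 days only by this rule, with a log2 ratio of -0.77 at PMA 3 days, and its second probe set passed 2-fold at both times. LTF and LCN2, made in late granulocytes, were below the floor on all 3 arrays. CAMP, also a late granule gene, was above it on all 3. It had 747, 425 and 343 units in undifferentiated, PMA 3 days and PMA 8 days cells. Its signal was 2.18-fold lower at PMA 8 days and short of 2-fold lower at PMA 3 days.

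PU.1 targets were split. Of 10 tested, 4 were higher and 2 lower at both times. CSF1R, the receptor for macrophage colony-stimulating factor, had 1469 units in undifferentiated cells, 8210 at PMA 3 days and 6801 at PMA 8 days, 5.59-fold and 4.63-fold higher. The endotoxin co-receptor CD14 had 850, 34195 and 22449 units. The scavenger receptor MSR1 was at least 26.3-fold and at least 17.3-fold higher by its brightest probe set. By 3 other MSR1 probe sets the log2 ratios were smaller, 1.49 to 3.21 at PMA 3 days and 1.42 to 2.63 at PMA 8 days. The integrin ITGAM was 2.47-fold and 2.89-fold higher, with log2 ratios of -0.08 and 0.10 from its second probe set. The ITGAM call at PMA 3 days ends under poly-A control scaling. CSF2RA (3.74-fold and 3.77-fold, and -2.38 to -0.80 in log2 ratio by 3 other probe sets at PMA 8 days) and CSF3R were lower. SPI1 itself gave no call, as above.

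Of the inflammatory targets of C/EBP-beta and C/EBP-delta, 3 of 7 tested were higher and 0 lower at PMA 3 days, and 2 of 8 and 0 at PMA 8 days. The chemokine CXCL8 had 1006 units in undifferentiated cells, 6570 at PMA 3 days and 4491 at PMA 8 days. IL1B had 889, 1977 and 3069 units, 2.22-fold and 3.45-fold higher, the first ending under poly-A control scaling, as did that of ORM1. The acute-phase gene ORM1 was 2.14-fold higher at PMA 3 days and just under 2-fold at PMA 8 days, where quantile normalization or centring brings the count to 3. The chemokine CCL2 had 257 units in undifferentiated cells, 84.1 at PMA 3 days and 329 at PMA 8 days. It was called higher at PMA 8 days than at PMA 3 days, by at least 1.14 on the log2 scale. That CCL2 call is not made at the 60th percentile floor of 261, nor with a 3-fold call. TNF had log2 ratios of 0.45 and 0.35. The list does not separate targets of the one factor from those of the other.

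Among 6 tested IRF8 targets, BCL6, a repressor, was 5.34-fold and 5.36-fold higher, with 0.79 and 2.07 in log2 ratio from 2 other probe sets at PMA 3 days. The protease inhibitor CST3 was 3.46-fold and 5.20-fold lower. Its other 2 probe sets gave log2 ratios of -0.72 and -0.53 at PMA 3 days and -1.39 and -1.18 at PMA 8 days, past 2-fold at the later time. The oxidase subunit CYBB (0.67 and 0.25) and the protease CTSC (0.94 and 0.50) had log2 ratios short of 2-fold by their brightest probe sets. A second CYBB probe set gave 1.64 and 1.05, past 2-fold at both times, and 3 others of CTSC ranged from -0.68 to 1.28 at PMA 3 days. Of 4 tested genes known to be repressed by GFI1, the cell cycle inhibitor CDKN1A had 1601 units in undifferentiated cells, 6941 at PMA 3 days and 9286 at PMA 8 days, 4.34-fold and 5.80-fold higher. ID2 (-0.34 and -0.13 on the log2 scale), CEBPE (0.11 and 0.26) and CSF1 were not called. Of 6 tested RUNX1 targets, 1 was higher (CSF1R), 2 were lower (ELANE and NFE2, an erythroid and platelet factor), and the others were not called.

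**Figure D5:**
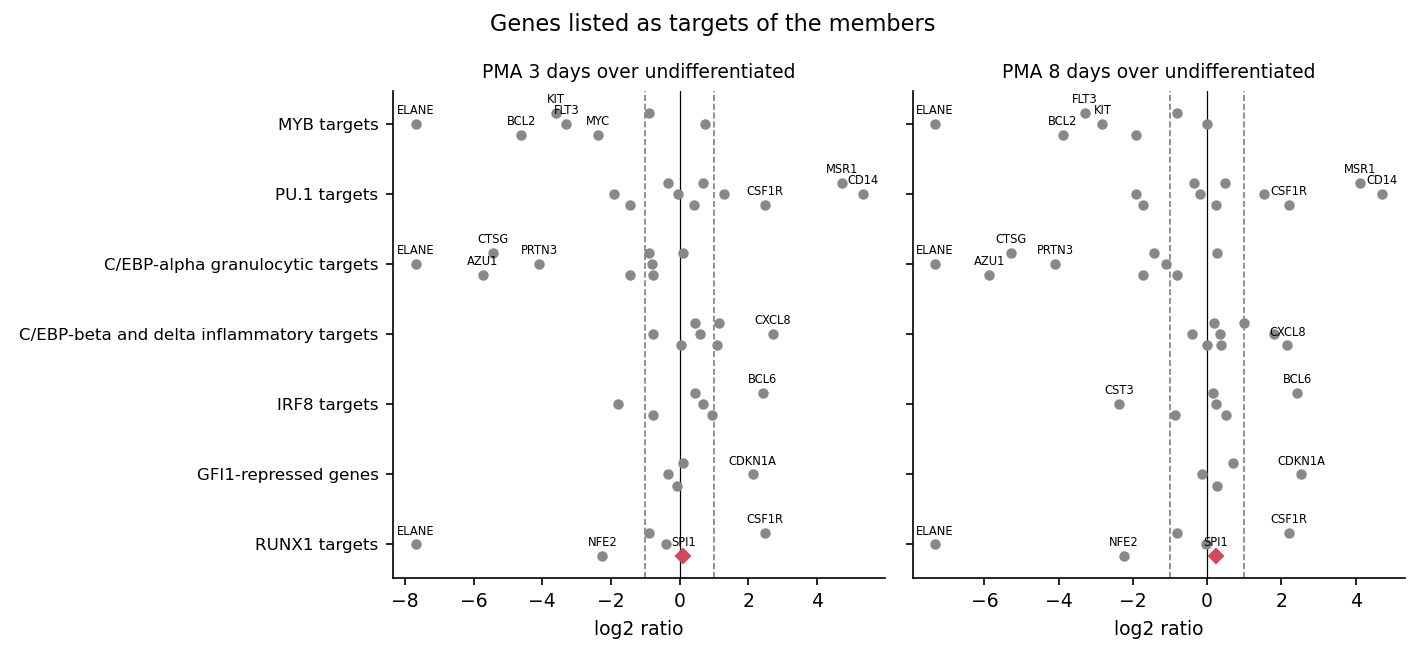
Log2 ratio (x axis) of the tested genes of 7 target lists (rows) at PMA 3 days and PMA 8 days over undifferentiated cells, 1 point per gene and list. Dashed lines mark 2-fold, and the red diamond is SPI1. Genes of the MYB and C/EBP-alpha lists reach far to the left, and those of the PU.1 list lie on both sides.

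The genes whose pattern was most like each member's were taken by the distance between their 2 log2 ratios over undifferentiated cells, across 3 arrays. Nearest to MYB were CACNA2D3 (distance 0.14 on the log2 scale) and the chemokine receptor CCR2 (0.35), and nearest to IRF8 were CITED4 (0.05) and GPR18 (0.08). GPC3 (0.08) and DEFB1 (0.09) were nearest to CEBPA, RALA and TIMP2 (both 0.02) to CEBPB, and RAD9A (0.02) and ATXN2 (0.03) to CEBPD. CPSF6 and TUT4 (both 0.01) were nearest to KLF4, and LDHAL6B (0.02) and SYNE3 (0.03) to SPI1, whose own ratios are bounds. For GFI1, MS4A3 (0.77) and BCL2 (0.80) were nearest among 419 genes above the floor on the same arrays, and 0 lay within 0.25. At PMA 3 days the ratios of GFI1 and of these genes are bounds. The GFI1 distances therefore depend in part on the floor. The number of genes within 0.25 of a member was 1 for MYB, 7 for IRF8, 12 for CEBPA, 136 for CEBPB, 166 for CEBPD and 1085 for KLF4, of 11123 compared.

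Each array had a trimmed mean signal of 1000 units, as set by the scaling. The ratio of 3' to 5' signal was 1.36 to 1.49 for actin and at most 1.16 for GAPDH. All 8 measured myeloid markers were above the floor on every array. Their summed signal was 235151 (PMA 3 days) and 195185 (PMA 8 days) against 156338 in undifferentiated cells. LYZ went the other way (36591 and 23243 against 62439 units) and CD4 was nearly level (1131 and 1124 against 1164), while the others were higher on both PMA arrays. The 4 T cell markers were below the floor on every array. Of the fibroblast markers 3 of 4 were above the floor on each PMA array and 2 of 4 in undifferentiated cells, with summed signals of 3428 (PMA 3 days) and 3063 (PMA 8 days) against 776. COL1A1 (2337 and 1828 against 464 units) and PDGFRA (923 and 961 against 8.48) carried that sum, while COL1A2 went the other way (10.1 and 47.1 against 157). On every array 2 of 3 B cell and 2 of 3 erythroid markers were above the floor. So were 1 of 3 epithelial markers and 1 of 3 late neutrophil granule markers (CAMP). Of 3 megakaryocyte markers, 1 (PMA 3 days) and 2 (PMA 8 days) were above it, against 2 in undifferentiated cells. The part of these markers in the results was not tested.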

How the data were processed

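Signal intensity values per probe set were deposited by the authors for 3 arrays and were made with MAS5, per the submitters' processing notes; version and settings: not given in the sources used here. Values are on a linear scale, and their equal trimmed means (2% left out at either end) are read from the values. Labelling began with 200 ng of total RNA, per the labels' protocols.

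Of 54675 probe sets, 62 controls were set aside. The platform table pairs 41091 with a single gene, 1801 with more than 1 gene, and leaves 11721 unnamed. Entrez IDs of 41037 of the 1-gene probe sets were found in the RefSeq table of GRCh38.p14. A gene was represented by the probe set with the highest mean log2 signal over the arrays, after the floor. A comparison took in each gene that exceeded the floor in either of its arrays, and no p-value was computed. The members and the 16 lists were chosen with earlier results of these data known. Genes named from the lists are at most 6 past 2-fold per list and comparison, plus relatives of the members and the 2 nearest genes in pattern. Uncalled target genes named beside them were picked after their values were seen. A check of the calling put changes well past 2-fold on genes well above the floor of simulated arrays. Noise there was set below the spread between probe sets of one gene. The check therefore does not bear on ratios near 2-fold or signals near the floor, and its outcome is not given here. Software: numpy 2.4.6, pandas 2.3.3 and matplotlib 3.10.9 under Python 3.11.15. Alternatives were 2 other floors and none, 3 other scalings, 2 other uses of probe sets and a 3-fold call.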

Additional observations from a re-analysis of the deposited data

How the results depend on the processing

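No paired analysis was possible because each condition has 1 culture. The count of members past 2-fold over undifferentiated cells, 5 of 8 at PMA 3 days and 6 of 8 at PMA 8 days, stayed within 1.5 times of itself under the 9 alternatives; the lowest was 4 at either time with a 3-fold call, where CEBPB was no longer called, nor CEBPD at PMA 8 days. Between the PMA arrays the count of 1 member became 0 at the 60th percentile floor and with a 3-fold call, and 2 with poly-A control scaling, where CEBPA joined GFI1. Of the other list genes, 44 were past 2-fold at PMA 3 days, 27 with probe sets of the plain _at type only and 24 with a 3-fold call. At PMA 8 days the count was 41, and 26 and 23 under the same alternatives. Between the PMA arrays it was 3, and 5 at the 40th percentile floor, 1 at the 60th, 16 without a floor, 5 with poly-A control scaling, and 0 with plain _at probe sets and with a 3-fold call. The alternative with plain probe sets tests fewer genes; the cause of the other shifts was not tested. Of the member ratios, the uncalled one of CEBPB between the PMA arrays changed sign (0.10 with poly-A control scaling). Called log2 ratios ranged from -5.86 to -3.48 for MYB, -5.78 to -4.57 for GFI1, -4.10 to -3.67 for IRF8, -3.01 to -2.58 for CEBPA and 1.15 to 1.58 for CEBPB at PMA 3 days. The lowest size for MYB, -3.48 (-3.16 at PMA 8 days), came from the median of its probe sets, where the dim one is a bound. Scaling to the poly-A controls moved the median of all genes to -0.39 (as deposited -0.12) at PMA 3 days over undifferentiated and to 0.30 (0.04) at PMA 8 days over PMA 3 days, and the share of higher calls to 28.7% (49.1%) and 92.2% (59.5%). Signals near the floor limit what SPI1, GFI1 and the dim MYB probe set can show.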

Other observations

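Other factors of blood cell development, outside the members' families, were read in a list of 21 genes. The list is drawn with the family lists but not counted with them. It was also chosen with earlier results of these data known, so its counts only describe these genes. Of 18 tested at PMA 3 days, 9 were lower and 3 higher, where 10.7% and 10.3% of all genes were, and of 18 at PMA 8 days 8 were lower and 2 higher, against 8.39% and 9.72%. LMO2, a bridging protein of stem cell factor complexes, had 16749 units in undifferentiated cells, 2835 at PMA 3 days and 3068 at PMA 8 days. This was 5.91-fold and 5.46-fold lower. Its second probe set gave -2.93 in log2 ratio at both times, a ratio taken after the floor that may be a bound. NFE2 was at least 4.74-fold lower at both times, LYL1, a relative of TAL1, 2.67-fold and 2.99-fold lower, and the vitamin D receptor VDR 2.48-fold and 2.80-fold lower (-1.11 to 0.20 in log2 ratio by 3 other probe sets at PMA 8 days). GATA2 was 2.75-fold and 2.67-fold lower, with -0.89 to 0.28 in log2 ratio from 2 other probe sets at PMA 3 days. In the other direction, MAF, a macrophage factor, had 1738, 7090 and 5032 units in undifferentiated, PMA 3 days and PMA 8 days cells, 4.08-fold and 2.90-fold higher (0.91 to 1.74 in log2 ratio by 3 other probe sets at PMA 8 days), and BCL6 was higher as given above.

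A pair of ID genes, whose products block helix-loop-helix factors, differed between the PMA arrays. ID1 had 848 units in undifferentiated cells, 114 at PMA 3 days and 311 at PMA 8 days, at least 2.08-fold higher at PMA 8 days than at PMA 3 days, a call that is not made at the 60th percentile floor of 261. ID3 had 374, 811 and 399 units in the same order, 2.03-fold lower at PMA 8 days than at PMA 3 days, and was not past 2-fold there under poly-A control scaling.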
